A study of Mus musculus with 21 samples.

Results

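Whole embryoid bodies (EB) of 2 mouse pluripotent cell lines were compared with adult mouse fibroblasts, on 9 of the 21 bead arrays of the series (3 of ES EB, 3 of iPS EB and 3 of fibroblasts). The members are all samples that the labels put in these 3 groups, and no measured value chose them. ES EB came from the embryonic stem cell line aPIG D3, from cultures at passages 7, 9 and 10. iPS EB came from the induced pluripotent stem cell line aPIG TiB7.4, from cultures at passages 5, 7 and 8. Both lines carry the αPIG construct: a cardiac promoter, that of Myh6 (alpha myosin heavy chain), controls genes for resistance to puromycin and for green fluorescent protein. The EB had differentiated spontaneously in spinner flasks, were never given puromycin and were collected on day 16. The fibroblasts were primary cultures from the tail tips of F1 129Sv x c57BL6 mice aged 8 weeks and were the study's control for the iPS cells. The labels give their 3 arrays passages 2, 3 and 4, whereas the design text calls these arrays technical replicates, so they were averaged to 1 sample. Each line is a single line and the fibroblasts count as a single RNA, so every call below concerns these lines and this fibroblast culture. The remaining 12 arrays hold the undifferentiated cells of both lines, grown with LIF on inactivated embryonic fibroblast feeders, and puromycin-selected cardiomyocytes (CM), and they entered the fit.

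An embryoid body is an aggregate in which pluripotent cells, once LIF is withdrawn, differentiate without direction into derivatives of the germ layers (ectoderm, mesoderm and endoderm), often beside cells that stay undifferentiated. A fibroblast is a mesenchymal cell that makes and remodels connective tissue: it secretes fibrillar collagens, cross-links them with lysyl oxidase, degrades them with matrix metalloproteinases, and answers injury with chemokines. In cultures from adult tissue, macrophages can grow beside fibroblasts, and the cell cycle inhibitors of the Cdkn2a and Cdkn2b locus accumulate with passage. In bulk RNA, fewer cells of a type and less RNA per cell cannot be told apart.

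Values are log2 intensities after background correction and quantile normalization, on a scale where undetected probes lie slightly above the floor set by the offset of 16 (log2), and all differences are log2 differences unless a fold is named. A gene is called different at a Benjamini-Hochberg adjusted p under 0.05 in a limma model of all 7 groups, with n = 3 EB samples against the mean of the 3 fibroblast arrays. That mean enters as 1 sample, so each SE and p against fibroblasts takes its spread from the other 6 groups and assumes that fibroblasts vary like them. Where a probe was detected on no array of a group, its fold is given as a lower bound ("at least N-fold"), from the lowest level at which a probe was detected on each array, while its test and its share in a list's median use the fitted difference. ES EB and fibroblasts differed at 10863 of 21047 tested probes (51.6%), with 5682 higher and 5181 lower in ES EB. iPS EB and fibroblasts differed at 10240 (48.7%), with 5455 higher and 4785 lower. In ES EB, 933 probes were called at 4-fold or more above fibroblasts and 1176 at 4-fold or more below, and in iPS EB 836 and 1149. These 2 comparisons use the same fibroblast arrays and are not independent, so their values are set side by side without a test of likeness. Split by direction, the calls depended on the scaling: with median scaling, ES EB had 2470 probes above fibroblasts and 6177 below and iPS EB 2670 and 5145, and with scaling to the 75th percentile 8000 and 3850, and 6862 and 3838. The median over all tested probes, 0.06 in ES EB and 0.08 in iPS EB, lay at -0.22 and -0.09 with the first and at 0.48 and 0.39 with the second, and differences smaller than these shifts can change sign with the scaling.

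Between 16227 and 17866 of 45281 probes were detected on ES EB arrays, 16543 to 17600 on iPS EB arrays and 15508 to 16592 on fibroblast arrays. Pearson correlations of log2 values across probes averaged 0.783 between ES EB and fibroblast arrays and 0.784 between iPS EB and fibroblast arrays, against 0.951 between the EB of both lines and 0.983 to 0.985 within each of the 3 groups (probes are not independent replicates, and all arrays share the scaling). Fibroblast array 3 stood slightly apart, with a mean correlation of 0.976 with the other fibroblast arrays, and ES EB replicate 1 was nearer to iPS EB (0.962) than the other ES EB replicates (0.944 and 0.948). Presence or absence accounts for part of the contrast: 1167 probes were detected on all 6 EB arrays and on no fibroblast array, 817 on all 3 fibroblast arrays and on no EB array, and 11824 on all 9.

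Of the 12 probes named for the highest excess over fibroblasts, 5 belonged to the pluripotency list below (Dppa5a, Dppa4, Nanog, Esrrb and Dnmt3b) and 2 to growth factors (Igf2 and Mdk). These 12 had the highest mean difference over both lines among probes that were called in both and whose EB and fibroblast arrays did not overlap, with each known gene taken by its brightest probe only. Further probes of Dppa5a (9.59 in ES EB and 8.62 in iPS EB) and Bex4 (6.34 and 6.11) would otherwise have ranked among them. Dppa5a, a gene of undifferentiated cells and early germ cells, stood at 13.52, 14.04 and 14.08 in ES EB, at 13.11, 13.35 and 12.42 in iPS EB and at 4.70, 4.28 and 4.49 on the fibroblast arrays. The fibroblast arrays were thus near background and every EB sample was bright, with a difference of 9.39 (SE 0.32, adjusted p = 3.3e-13) in ES EB and 8.47 (SE 0.32, adjusted p = 8.6e-13) in iPS EB. Igf2, the imprinted insulin-like growth factor of fetal tissue, read 12.43, 11.82 and 12.10 in ES EB and 13.14, 13.05 and 13.94 in iPS EB, against 5.45, 5.50 and 5.77 in fibroblasts. Its difference was 6.54 (SE 0.40) for ES EB and 7.80 (SE 0.40) for iPS EB, and all iPS EB samples lay above all ES EB samples.

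Trh, which encodes the precursor of thyrotropin-releasing hormone, read 11.79, 11.53 and 11.48 in ES EB and 11.05, 11.70 and 10.91 in iPS EB and was not detected in fibroblasts, which put it at least 127-fold higher in ES EB and at least 97.2-fold higher in iPS EB. Mdk, the heparin-binding growth factor midkine, was higher by 6.54 in ES EB and 6.90 in iPS EB. Dppa4, a chromatin-associated protein of pluripotent cells, was at least 105-fold higher in ES EB and at least 46.8-fold higher in iPS EB. Nanog, a core transcription factor of pluripotency, read 10.29, 11.27 and 11.25 in ES EB, 10.32, 10.77 and 9.54 in iPS EB and 4.28, 4.50 and 4.27 in fibroblasts, and was at least 79.9-fold and 48.3-fold higher. Esrrb, an orphan nuclear receptor of the same network, was at least 83.0-fold higher in ES EB and 35.7-fold in iPS EB. The latter bound was 58.2-fold without iPS EB replicate 3, the sample lowest in Nanog, Dppa4 and Esrrb alike.

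Dnmt3b, a de novo DNA methyltransferase, split the ES EB samples: replicate 1 read 12.33, beside 10.19 and 10.16 in the others, while iPS EB read 12.69, 13.03 and 12.60 and fibroblasts 5.77, 5.48 and 5.65. The difference was 5.26 in ES EB (4.54 without replicate 1) and 7.14 in iPS EB. Spink1, a secreted trypsin inhibitor, was at least 36.0-fold higher in ES EB and 126-fold in iPS EB. Gldc, the glycine decarboxylase of the mitochondrial glycine cleavage system, was at least 51.3-fold and 71.2-fold higher, and Bex4, an X-linked gene of the brain-expressed family, at least 96.8-fold and 95.5-fold. The remaining probe of the 12, ILMN_1232107, has no gene name here and was at least 57.7-fold and 72.8-fold higher.

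**Figure D1:**
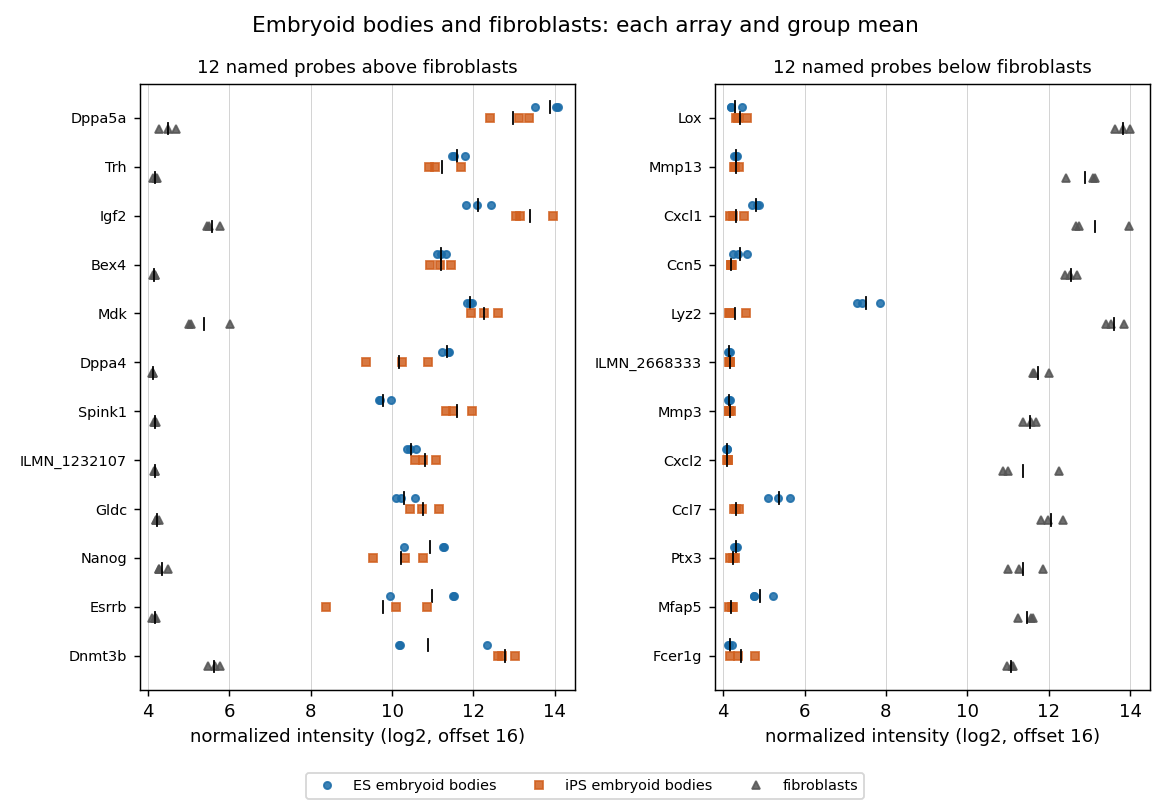
Log2 normalized intensity (x axis) of the 12 probes named for EB over fibroblasts and the 12 for fibroblasts over EB (the brightest probe of each known gene), with a point for each array of ES EB, iPS EB and fibroblasts and a tick at each group mean. EB and fibroblast points do not overlap at any of these probes. ES EB and iPS EB points do not overlap at Dppa5a, Igf2, Dppa4, Spink1, Dnmt3b, Cxcl1, Ccn5, Lyz2, Ccl7 and Mfap5, although the ES EB arrays themselves are split at Dnmt3b. Cxcl1 and Ccn5, near background in EB, were not called between the lines (limma adjusted p = 0.35 and 0.65). Over all 21047 tested probes, 4915 were called between the lines without overlap.

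The 12 probes named by the same rule for the highest excess of fibroblasts over EB were Lox, Mmp13, Mmp3, Ccn5, Mfap5, Cxcl1, Cxcl2, Ccl7, Ptx3, Lyz2, Fcer1g and an unnamed probe, and a second probe of Ccl7 (-6.90 in ES EB and -7.90 in iPS EB) was passed over. Lox, the lysyl oxidase that cross-links collagen and elastin, read 13.63, 13.99 and 13.84 on the fibroblast arrays, 4.47, 4.19 and 4.19 in ES EB and 4.32, 4.37 and 4.58 in iPS EB. The difference from fibroblasts was -9.53 (SE 0.53, adjusted p = 2.1e-10) in ES EB and -9.40 (SE 0.53, adjusted p = 2.3e-10) in iPS EB, with each EB sample near background. Mmp13, a collagenase, was detected on no EB array and was at least 329-fold lower in each line. Mmp3, the stromelysin that cleaves proteoglycans and activates collagenases, was at least 129-fold lower in each. Ccn5, a matricellular protein, was lower in ES EB (-8.14) and at least 259-fold lower in iPS EB. Mfap5, a component of elastic microfibrils, was lower in ES EB (-6.56) and at least 123-fold lower in iPS EB.

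Among the chemokines, Cxcl1, which attracts neutrophils, read 12.74, 12.68 and 13.96 in fibroblasts, 4.84, 4.71 and 4.88 in ES EB and 4.24, 4.17 and 4.52 in iPS EB. The difference was -8.32 (SE 0.50) in ES EB and the iPS EB level was lower by at least 389-fold. Cxcl2, its close relative, read 10.87, 10.99 and 12.26 in fibroblasts and 4.08 to 4.11 in the 6 EB samples, at least 116-fold lower in each line. Fibroblast array 3 was the highest of the fibroblast arrays for both. Ccl7, which attracts monocytes, was lower in ES EB (-6.69) and at least 184-fold lower in iPS EB. Ptx3, a secreted pentraxin of innate immunity, was at least 116-fold and 115-fold lower. The probe ILMN_2668333, which has no gene name here, was at least 150-fold lower in each line, and Lyz2 and Fcer1g, which complete the 12, are given with the leukocyte genes.

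Of the 11 named genes high in fibroblasts, 7 matched a promoter in the RefSeq table (GRCm38.p6, 250 bases before to 50 after the gene's start), and 3 of the 7 held the NF-kappaB motif (kappaB, searched on both strands with no overlap between matches or with other motifs, and chosen after the values were seen). They are shown because they are the chemokine and pentraxin genes of the paragraph above, and the capitals mark the motif on the gene's own strand. Over all 32851 promoters of the table, 5.80% held it. A match describes letters in this window and is no evidence of binding. The Cxcl1 promoter lies at chr5:90890995-90891294, on the plus strand, with its match starting 71 bases before the start site. The Cxcl2 promoter is at chr5:90903649-90903948, also plus, with its match at 97 bases before. The Ptx3 promoter is at chr3:66219637-66219936, plus, with its match at the start site itself.
Cxcl1: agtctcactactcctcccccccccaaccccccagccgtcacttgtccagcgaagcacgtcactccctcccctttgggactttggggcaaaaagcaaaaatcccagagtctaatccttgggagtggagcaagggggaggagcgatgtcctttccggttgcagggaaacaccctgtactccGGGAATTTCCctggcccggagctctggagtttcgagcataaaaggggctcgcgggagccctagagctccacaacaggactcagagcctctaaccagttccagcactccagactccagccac
Cxcl2: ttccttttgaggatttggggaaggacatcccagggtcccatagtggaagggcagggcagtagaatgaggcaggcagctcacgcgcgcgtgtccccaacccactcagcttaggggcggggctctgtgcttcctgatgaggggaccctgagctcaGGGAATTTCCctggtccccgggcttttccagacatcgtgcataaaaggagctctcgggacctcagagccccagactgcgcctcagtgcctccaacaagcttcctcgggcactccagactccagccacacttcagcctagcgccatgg
Ptx3: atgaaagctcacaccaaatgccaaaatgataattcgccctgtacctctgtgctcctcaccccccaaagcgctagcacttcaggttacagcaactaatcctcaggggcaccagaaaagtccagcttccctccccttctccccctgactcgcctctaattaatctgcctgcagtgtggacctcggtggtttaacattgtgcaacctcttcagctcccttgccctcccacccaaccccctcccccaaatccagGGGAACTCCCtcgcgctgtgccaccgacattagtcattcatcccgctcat
TATAAA was found in 2 of these 7 genes (Mmp13 and Mmp3) and in 13.6% of all promoters, and CCAAT in 0 of the 7 and in 37.4% of all. Of the 11 named genes high in EB, 7 matched, and kappaB was in 1 of them (Dnmt3b), CCAAT in 3 and TATAAA in 0.

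Lists of marker genes describe the same contrast by cell type and pathway. Over all 11501 genes tested, 29.2% were called above fibroblasts and 27.6% below when ES EB were compared, and 28.4% and 25.7% for iPS EB, and list counts are read against these shares. A gene is read by its brightest probe, and a list gene that was expressed in 1 group only passed the filter through that group and had to differ, so the counts are descriptions. List genes without a probe, or dropped by the filter on dim probes, are not counted. Tested were 11 of 20 neural genes (19 with a probe), 3 of 10 erythroid (8), 6 of 9 smooth muscle (9), 17 of 21 endoderm (21) and 6 of 8 early mesoderm (7). With undetected genes set at their bound, or at 0 where there was none, the medians given below stayed or moved toward 0, by most for the early mesoderm list (1.21 to 0.72 in ES EB and 4.18 to 3.69 in iPS EB), and the pluripotency medians became 3.91 and 2.94. The direction in which most called members of a list lay was the same with median and with 75th percentile scaling for every list in these comparisons that had such a direction (the sex-linked list in ES EB was divided and the erythroid list had no call).

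The fibroblast list (surface markers, cytoskeleton and transcription factors of mesenchyme) was lower in EB at 16 of 18 tested genes in each line, and none was higher. Its median difference was -2.56 for ES EB and -2.75 for iPS EB, and its summed linear level ran from 2541 to 3468 in ES EB, from 1371 to 3150 in iPS EB and from 22348 to 24900 on the fibroblast arrays. Thy1, a surface glycoprotein used to isolate fibroblasts, read 8.36, 8.22 and 8.17 in ES EB, 6.64, 7.13 and 7.53 in iPS EB and 11.44, 11.63 and 11.90 in fibroblasts, so the EB still expressed it. S100a4, a calcium-binding protein of motile mesenchymal cells, was detected on no EB array and at least 42.8-fold lower in each line. Vim, the mesenchymal intermediate filament protein, was lower in ES EB (-2.88) and iPS EB (-3.02) and stayed well above background in all EB samples. Pdgfra, the platelet-derived growth factor receptor alpha, was lower in ES EB (-1.45, adjusted p = 0.027) and iPS EB (-1.51, adjusted p = 0.023). Its call was lost without ES EB replicate 2 (adjusted p = 0.052), without iPS EB replicate 1 or 2 (0.061 and 0.060), without the filter on dim probes (0.089 in ES EB and 0.080 in iPS EB) and, for iPS EB, with only the groups compared in the fit (0.091). The members not called were Cd34 (0.02, adjusted p = 0.91) and Fap (-0.60, adjusted p = 0.052) in ES EB, and En1 (-0.19, adjusted p = 0.72) and Twist1 (-0.55, adjusted p = 0.12) in iPS EB.

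Fibrillar collagens and matrix proteins showed the same direction with larger differences: 26 of 30 tested genes were lower in each line and 1 was higher, with medians of -4.20 in ES EB and -4.51 in iPS EB. Their summed level was 6220 to 7150 in ES EB, 2711 to 5939 in iPS EB and 101528 to 117405 in fibroblasts. Col1a1, the alpha 1 chain of type I collagen, read 7.03, 6.42 and 6.71 in ES EB, 4.68, 4.52 and 5.83 in iPS EB and 11.51, 11.77 and 11.97 in fibroblasts, a difference of -5.03 in ES EB and -6.74 in iPS EB. Col1a2, its partner chain, was detected on no EB array and at least 49.8-fold and 49.7-fold lower. Fbln2, an extracellular glycoprotein, was lower (-5.74 and -7.67), as was Bgn, the proteoglycan biglycan (-4.38 and -6.06). Dcn, the proteoglycan decorin, differed by -1.21 in ES EB and -2.77 in iPS EB, with EB levels of 8.41 to 10.66. The member that was higher, Mfap4, a microfibril-associated glycoprotein, was detected on all EB arrays and on no fibroblast array, and was at least 4.26-fold higher in ES EB and 3.16-fold in iPS EB. Lum, a further small proteoglycan, was not called in either line (0.83 with adjusted p = 0.063 in ES EB and -0.17 with adjusted p = 0.73 in iPS EB).

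Basement membrane genes were divided. Of 10 tested, ES EB had 3 above and 5 below fibroblasts, and iPS EB 4 above and 5 below. The type IV collagen chains Col4a1 (-1.50 and -2.13) and Col4a2 (-2.28 and -2.83) and the linker Nid1 (-2.84 and -3.05) were lower in EB. Lama1, the laminin chain of early embryos, was higher by 2.57 and 2.01, Agrn (agrin) by 1.32 and 1.39, and Nid2, the paralog of Nid1, by 1.46 and 1.15. The 4 regulators of epithelial-mesenchymal transition Snai1, Snai2, Zeb1 and Zeb2, transcription factors that repress epithelial genes, were lower in each line, with differences of -2.60, -2.75, -1.29 and -1.49 in ES EB and -2.14, -3.03, -1.34 and -1.59 in iPS EB. The iPS EB call of Zeb1 was lost with only the groups compared in the fit (adjusted p = 0.070). Cdh2 and Cdh11, the other two of that list, were not called in either line.

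The fibroblast arrays also carried a leukocyte signal that the EB lacked or held at a low level. All 9 tested leukocyte genes were lower in EB of each line, with medians of -4.31 and -4.85, and their summed level was 22928 to 29182 on the fibroblast arrays, 559 to 759 in ES EB and 117 to 212 in iPS EB. Lyz2, the lysozyme of macrophages, read 13.40, 13.53 and 13.86 in fibroblasts, 7.30, 7.41 and 7.84 in ES EB and 4.18, 4.13 and 4.57 in iPS EB. Its 3 groups did not overlap, and the difference was -6.08 (SE 0.38) in ES EB and -9.30 (SE 0.38) in iPS EB. Fcer1g, the common gamma chain of Fc receptors, read 10.98, 11.09 and 11.11 in fibroblasts and 4.12 to 4.80 in EB. C1qb, a complement chain made by macrophages, differed by -4.89 and -6.87, Laptm5, a lysosomal protein of blood cells, by -4.05 and -5.36, and Csf1r, the receptor for macrophage colony-stimulating factor, by -4.29 and -4.50. Ptprc, the pan-leukocyte antigen CD45, was dimmer, with 4.90, 5.05 and 5.30 in fibroblasts and no detection in EB, and its calls were lost with 75th percentile scaling (adjusted p = 0.17 and 0.092). The leukocyte level moves with the fibroblast group, and its part in the differences of chemokines, Fc receptor, lysozyme, antigen presentation and interferon genes was not tested. Lyz1 and Lyz2 are near-identical copies, and whether their probes tell them apart was not tested.

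Antigen presentation genes (class I heavy and light chains, peptide transporters and immunoproteasome subunits) were lower at 8 of 9 tested genes in each line. B2m, the light chain of class I molecules, read 9.83, 9.32 and 9.63 in ES EB, 9.31, 9.09 and 9.54 in iPS EB and 12.48, 12.55 and 12.79 in fibroblasts, a difference of -3.02 and -3.30. The heavy chain H2-D1 differed by -2.89 and -4.16. Psmb10, an immunoproteasome subunit, was the member not called (0.84 with adjusted p = 0.052 in ES EB and -0.35 with adjusted p = 0.44 in iPS EB). Of 7 tested interferon response genes, 5 were lower in each line, among them Ifitm3, which blocks viral entry (-2.80 and -2.95). Isg15, the ubiquitin-like modifier, differed by -1.39 in ES EB and was at least 2.70-fold lower in iPS EB, but by -0.78 and at least 1.76-fold without fibroblast array 3, which read 7.18 beside 5.25 and 5.44 on the others. The sex-linked RNA Xist, which coats the inactive X chromosome, read 10.16, 10.08 and 8.50 on the fibroblast arrays and was detected on no EB array (at least 33.3-fold lower in each line). The Y-linked Eif2s3y was also detected on all fibroblast arrays (6.30, 6.49 and 6.72), below its ES EB levels of 8.39, 8.13 and 8.20 (difference 1.74, adjusted p = 0.021, but 1.03 and adjusted p = 0.38 with median scaling, and adjusted p = 0.075 without the filter on dim probes) and its iPS EB levels of 7.76, 6.86 and 7.52 (0.88, adjusted p = 0.24). No label says whether the culture pooled cells of both sexes.

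Pluripotency genes were higher in EB almost throughout. Of 22 tested genes, 21 were higher in ES EB and 19 in iPS EB, with medians of 4.08 and 3.29, and 17 of the 22 were detected on no fibroblast array. Their summed level was 28652 to 40901 in ES EB, 17415 to 32474 in iPS EB and 1022 to 1446 in fibroblasts. Pou5f1, the transcription factor Oct4, read 9.40, 10.36 and 10.51 in ES EB, 9.36, 9.80 and 8.92 in iPS EB and 4.15, 4.24 and 4.18 in fibroblasts, at least 44.4-fold and 26.7-fold higher. Sox2, its partner, was at least 10.6-fold and 5.53-fold higher. Zfp42, the zinc finger protein Rex1 of naive pluripotent cells, read 9.52, 11.48 and 10.86 in ES EB and 6.82, 7.65 and 6.22 in iPS EB, at least 64.2-fold and 4.86-fold higher, without overlap between the lines. Sall4, a zinc finger regulator of embryonic cells, was steadier, at 9.74, 9.77 and 9.84 in ES EB and 10.28, 10.59 and 10.46 in iPS EB, at least 36.0-fold and 56.7-fold higher. Klf4, a reprogramming factor that skin fibroblasts also express, read 8.54, 8.96 and 9.82 in fibroblasts. It was not called in ES EB (-1.12, adjusted p = 0.26), whose samples spread from 6.18 to 9.09, and was lower in iPS EB (-2.23, adjusted p = 0.028). Klf2, a relative of it, was higher in ES EB (1.38, adjusted p = 0.0098) and not called in iPS EB (-0.08, adjusted p = 0.90).

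Part of the cardiomyocyte genes were higher in the unselected EB than in fibroblasts, with a summed level well below that of the selected CM. Of 26 tested genes, 11 were higher in ES EB, 14 in iPS EB and none lower, with medians of 0.77 and 1.20 (18 were higher in ES EB with 75th percentile scaling). The other 15 in ES EB and 12 in iPS EB were not called. The list's summed level was 6035 to 15199 in ES EB, 5667 to 14381 in iPS EB and 402 to 445 in fibroblasts, where 21 of the genes were detected on no array. In the selected CM it was 126213 to 131086 (ES line) and 107796 to 125747 (iPS line). Actc1, the cardiac alpha actin, read 10.96, 9.43 and 9.75 in ES EB, 10.31, 9.54 and 11.07 in iPS EB and 4.14, 4.23 and 4.18 in fibroblasts, at least 43.1-fold and 51.7-fold higher. ES EB replicate 1 and iPS EB replicate 3 were the highest of their groups for Actc1, Myl2, Myl3, Tnnc1 and Csrp3. Of the myosin light chains, Myl2 of ventricular muscle was at least 37.4-fold and 42.8-fold higher, Myl3 at least 38.5-fold and 44.3-fold, and Myl7 of atrial muscle at least 40.2-fold and 20.1-fold. Myl4, the embryonic and atrial light chain, was higher by 5.89 and 5.46, and Tnnc1, cardiac troponin C, by 4.13 and 4.38. Myh6, whose promoter is part of the αPIG construct, read 8.59, 7.69 and 7.96 in ES EB and 7.12, 7.01 and 8.56 in iPS EB, at least 11.0-fold and 7.71-fold higher. The other members called in both lines were Csrp3, Ttn and Tnni1, proteins of the muscle fibre, and Ryr2, the calcium release channel, which was at least 1.67-fold and 2.18-fold higher. Of the cardiac transcription factors, Gata4 and Tbx5 were near background in all 3 groups, Mef2c was expressed in all 3 (means of 6.26, 7.00 and 6.93), and none of these was called. Nkx2-5 was at least 1.13-fold higher in iPS EB (adjusted p = 0.024) and not called in ES EB (adjusted p = 0.49), which is no test of a difference between the lines.

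All 11 cardiomyocyte genes called higher in ES EB and in iPS EB matched a promoter in the RefSeq table, and 3 of them, Actc1, Myl3 and Myl7, held the CArG box, the site bound by serum response factor in muscle genes, against 1.63% of all promoters in the table. The motif was chosen after the values were seen, was searched on both strands, and its matches overlapped no other motif searched. These promoters are shown because the members belong to the same contractile group, with the CArG box in capitals. The Actc1 promoter lies at chr2:114052826-114053125 on the minus strand, with the match starting 47 bases before the start site. The Myl3 promoter is at chr9:110763428-110763727 on the plus strand, with the match at 85 bases before. The Myl7 promoter is at chr11:5898733-5899032 on the minus strand, with the match at 61 bases before.
Actc1: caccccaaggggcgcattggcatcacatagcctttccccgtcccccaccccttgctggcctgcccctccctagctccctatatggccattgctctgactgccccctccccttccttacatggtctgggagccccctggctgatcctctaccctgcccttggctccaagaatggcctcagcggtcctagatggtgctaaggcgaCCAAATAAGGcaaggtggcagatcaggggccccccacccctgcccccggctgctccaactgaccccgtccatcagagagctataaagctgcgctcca
Myl3: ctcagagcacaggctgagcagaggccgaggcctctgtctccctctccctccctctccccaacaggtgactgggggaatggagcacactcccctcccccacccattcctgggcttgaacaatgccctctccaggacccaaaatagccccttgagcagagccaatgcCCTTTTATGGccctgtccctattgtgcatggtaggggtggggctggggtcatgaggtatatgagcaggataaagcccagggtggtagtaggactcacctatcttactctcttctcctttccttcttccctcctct
Myl7: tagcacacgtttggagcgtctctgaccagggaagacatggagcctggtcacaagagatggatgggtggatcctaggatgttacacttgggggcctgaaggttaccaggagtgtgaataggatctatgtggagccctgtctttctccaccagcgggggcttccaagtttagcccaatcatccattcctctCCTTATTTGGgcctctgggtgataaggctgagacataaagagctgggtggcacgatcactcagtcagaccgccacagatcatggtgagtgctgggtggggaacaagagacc
The kappaB motif was in 4 of these 11 genes (Actc1, Csrp3, Myh6 and Myl7), and the octamer ATGCAAAT, held by 1.74% of all promoters, was in 2 of the 13 pluripotency genes with a promoter (Zfp296 and Zfp42).

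Lists of markers of other lineages that an EB can hold follow, and undifferentiated cells also expressed genes of the epithelial, neural and endothelial lists. Of 17 tested endoderm and liver genes, 8 were higher in ES EB and 9 in iPS EB, and none lower. Ttr, the carrier transthyretin of visceral endoderm and liver, read 9.59, 8.23 and 8.87 in ES EB and 7.16, 8.79 and 10.63 in iPS EB, at least 19.4-fold and 18.9-fold higher. The iPS EB samples spread so widely that their bound was 34.2-fold without replicate 1 and 10.3-fold without replicate 3. Apoa1, the main protein of high-density lipoprotein, was at least 4.91-fold and 3.94-fold higher, and its iPS EB bound was 6.59-fold without replicate 1. Foxa1 and Sox17, transcription factors of endoderm, were at least 2.88-fold and 1.77-fold higher in ES EB and at least 9.52-fold and 4.87-fold higher in iPS EB. Afp, the fetal serum protein, was not called in ES EB (adjusted p = 0.34) and was at least 2.81-fold higher in iPS EB (adjusted p = 0.017, but 0.060 without the filter on dim probes). When only the groups compared entered the fit, 4 endoderm genes were called in iPS EB in place of 9, and Ttr (adjusted p = 0.058), Apoa1 (0.13) and Afp (0.20) were not among them.

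Epithelial genes were higher at 10 of 15 tested genes in ES EB and 11 in iPS EB. Their summed level was 1562 to 4265 in ES EB, 5060 to 6829 in iPS EB and 77.2 to 171 in fibroblasts. In undifferentiated cells it was 3204 to 3355 (ES) and 5318 to 5997 (iPS), so this list is not particular to differentiated cells. Cdh1, the epithelial cadherin that fibroblasts lack, read 8.38, 7.73 and 7.48 in ES EB, 8.58, 8.63 and 8.42 in iPS EB and 4.45, 4.31 and 4.82 in fibroblasts, higher by 3.34 and 4.02. Krt8, a keratin of simple epithelium, read 10.36 in ES EB replicate 1 and 7.92 and 7.99 in the others, and 10.46, 10.55 and 10.90 in iPS EB, at least 17.6-fold and 64.9-fold higher. Its ES EB bound was 10.1-fold without replicate 1. That of its partner Krt18 was 7.53-fold, and 4.37-fold without that sample, and that of the splicing regulator Esrp1 was 8.25-fold, and 5.17-fold without it. With only the groups compared in the fit, Krt18 was not called in ES EB (adjusted p = 0.051). Cldn6, a tight junction protein of embryonic epithelium, was at least 6.59-fold higher in ES EB and 40.4-fold in iPS EB.

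Neural genes were higher at 8 of 11 tested genes in ES EB and 9 in iPS EB, with 1 lower in each. Summed over the list, levels were 2643 to 2858 in ES EB, 2708 to 4916 in iPS EB and 1322 to 1526 in fibroblasts. In undifferentiated cells they were 1238 to 1509 (ES) and 1596 to 1696 (iPS). Sox11, a transcription factor of neural progenitors, read 10.66, 10.48 and 10.56 in ES EB, 11.29, 10.49 and 10.98 in iPS EB and 7.21, 7.28 and 7.02 in fibroblasts, higher by 3.39 and 3.75. Map2, a microtubule protein of dendrites, was higher by 2.56 and 2.94, and Stmn2, a tubulin-binding protein of growing neurites, by 2.59 and 2.85. Ncam1, the neural cell adhesion molecule, was the lower one (-2.31 and -1.89), with 9.95 to 10.20 on the fibroblast arrays. With only the groups compared in the fit, 5 neural genes were called in iPS EB.

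Endothelial genes were higher at all 8 tested genes in ES EB and at 5 in iPS EB. Their summed level was 1025 to 1487 in ES EB, 949 to 1340 in iPS EB and 95 to 122 in fibroblasts. In undifferentiated ES cells it was 1008 to 1125, near the ES EB range, and in undifferentiated iPS cells 646 to 729. Esam, an adhesion molecule of endothelial junctions, read 6.93, 7.21 and 7.04 in ES EB, 4.91, 4.66 and 5.07 in iPS EB and 4.21 to 4.26 in fibroblasts, at least 5.44-fold and 1.20-fold higher, the latter not called with only the groups compared in the fit (adjusted p = 0.074). Flt1, a receptor for vascular endothelial growth factor, went the other way between the lines, at 6.33, 5.62 and 5.85 in ES EB and 8.49, 8.97 and 8.94 in iPS EB. None of 3 tested erythroid genes was called: the embryonic globin Hbb-bh1 read 9.49 in ES EB replicate 1 but 4.48 and 4.23 in the others, and 5.36, 4.71 and 7.26 in iPS EB (adjusted p = 0.24 and 0.34 against fibroblasts, where it was not detected). Smooth muscle genes were lower at 5 of 6 tested genes in each line, among them Tagln, an actin-binding protein (-3.41 and -2.95), and Acta2, the smooth muscle actin also made by activated fibroblasts (-3.16 and -2.10). The iPS EB call of Acta2 was lost without iPS EB replicate 1 or 2 (adjusted p = 0.063 and 0.10), without the filter on dim probes (0.11), with only the groups compared (0.12) and with a trended and robust variance prior (0.060). Des, the muscle intermediate filament desmin, was the member higher in EB, by 2.60 and 1.82.

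**Figure D2:**
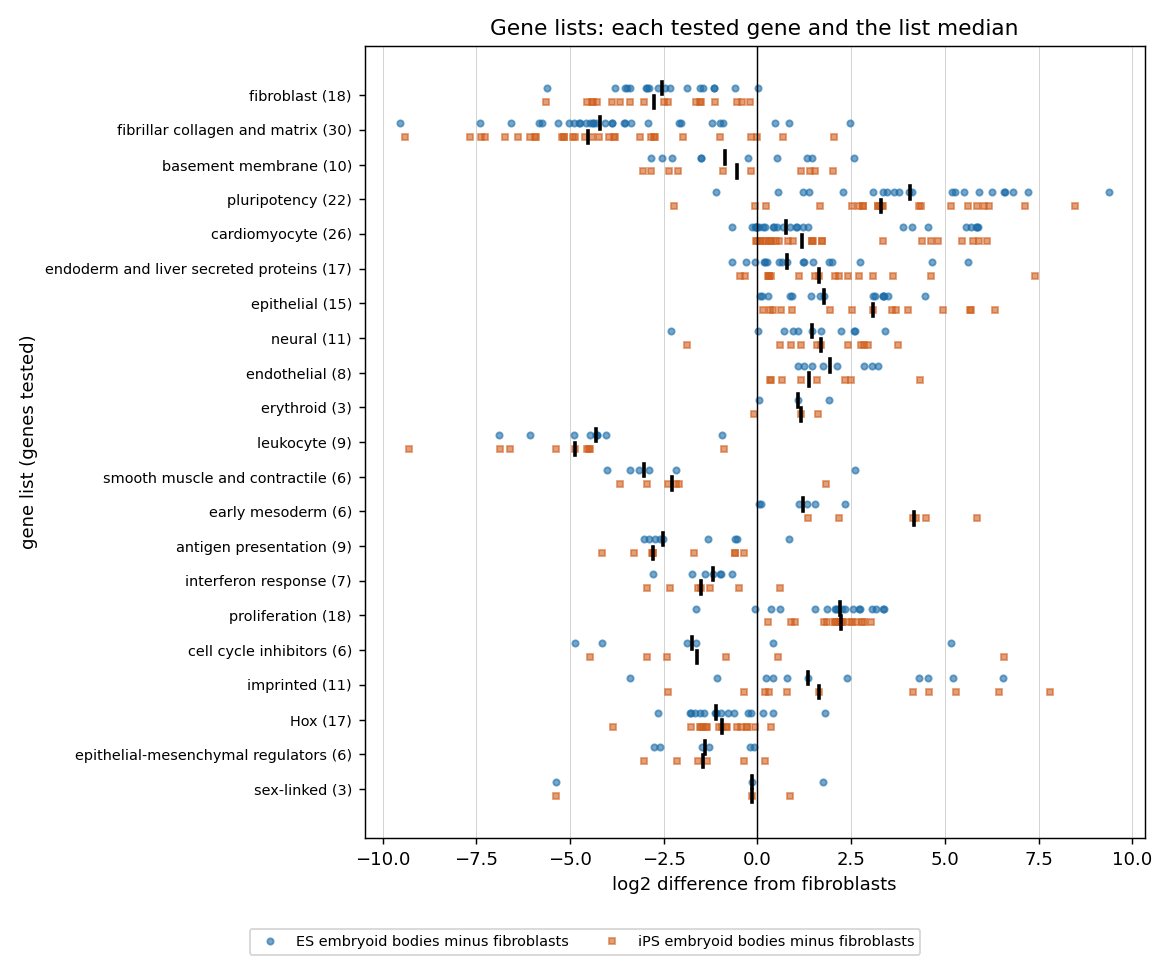
Log2 difference from fibroblasts (x axis) of each tested gene of the marker lists (y axis, with the number of genes tested), with ES EB points above iPS EB points and a black bar at each list's median. Matrix and leukocyte medians lie beyond -4 in both lines and the pluripotency medians above 3.

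Early mesoderm genes separated the lines. These are transcription factors and a signal of the primitive streak, where mesoderm and endoderm form in the gastrulating embryo. Of 6 tested genes, 4 were higher than in fibroblasts in ES EB and 6 in iPS EB, with medians of 1.21 and 4.18, and none was detected in fibroblasts. Lhx1, a homeobox factor of the streak and its derivatives, read 7.17, 6.24 and 6.37 in ES EB and 9.91, 10.26 and 10.16 in iPS EB, at least 3.94-fold and 45.1-fold above fibroblasts. Eomes, a T-box factor, read 5.12, 5.33 and 5.27 in ES EB and 7.88, 8.18 and 8.79 in iPS EB. Gsc, the homeobox factor goosecoid, was at least 1.77-fold higher in ES EB (adjusted p = 0.027) and at least 13.2-fold higher in iPS EB. Its ES EB call was lost without ES EB replicate 1 (adjusted p = 0.079), without background correction and in the authors' normalized values (0.061 in each), without the filter on dim probes (0.088) and with only the groups compared in the fit (0.090). With only the groups compared in the fit, 2 of the genes were called in ES EB.

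Tested directly against each other, the EB of both lines differed at all 6 early mesoderm genes, each higher in iPS EB, against 14.0% of all genes called higher and 14.6% called lower. The differences were 3.52 for Lhx1 (SE 0.36, adjusted p = 2.7e-06), 3.05 for Eomes, 2.97 for the growth factor Fgf8, 2.89 for Gsc and 2.08 for Mesp1, which marks nascent cardiac mesoderm. Mixl1, undetected in ES EB, was at least 1.96-fold higher in iPS EB (adjusted p = 0.0028). The list's summed level was 124 to 298 in ES EB and 1732 to 2496 in iPS EB, without overlap. In the undifferentiated cells of the lines, the mean level was 7.45 in iPS and 4.20 in ES cells for Lhx1, and 8.51 and 4.45 for Fgf8, a contrast not tested here.

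**Figure D3:**
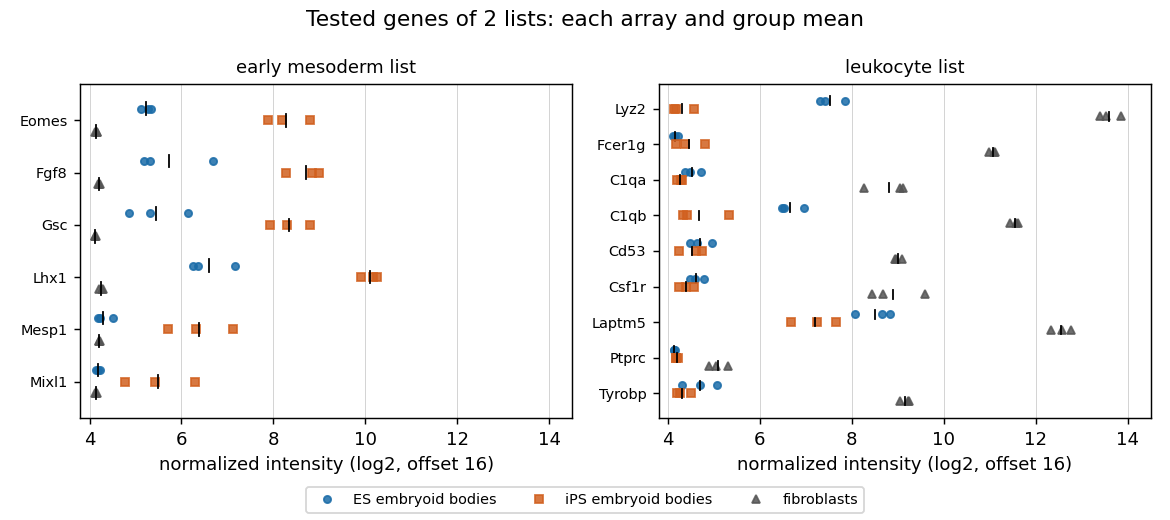
Log2 normalized intensity (x axis) of each array for the 6 early mesoderm and 9 leukocyte genes tested (y axis), coloured by group, with a tick at each group mean. Early mesoderm genes are high in iPS EB and undetected in fibroblasts, whereas the leukocyte genes are high on the fibroblast arrays.

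Proliferation genes were higher in EB, at 14 of 18 tested genes in ES EB (1 lower) and 17 in iPS EB. Top2a, the topoisomerase of dividing cells, read 9.81, 10.01 and 10.00 in ES EB, 9.35, 9.29 and 9.50 in iPS EB and 6.44, 6.33 and 7.04 in fibroblasts, higher by 3.34 and 2.78. Mcm5, a subunit of the replicative helicase, was higher by 3.37 and 3.02. The exception was Plk1, a mitotic kinase: its only probe was near background in ES EB (4.53, 4.60 and 4.20) but bright in iPS EB (8.27, 8.62 and 8.12), with differences from fibroblasts of -1.64 and 2.25. The same probe averaged 4.72 in undifferentiated ES cells and 8.92 in iPS cells. Whether sequence differences between the lines affect this probe was not tested.

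The cell cycle inhibitors differed in both directions. Cdkn2a, which encodes p16 and p19Arf, read 9.00, 8.74 and 9.43 in fibroblasts, 4.76, 4.80 and 5.18 in ES EB and 4.76, 4.62 and 4.40 in iPS EB, a difference of -4.14 and -4.46. Its neighbour Cdkn2b, encoding p15, differed by -4.88 and -2.95. Cdkn1c, the imprinted inhibitor p57, was higher by 5.15 and 6.56, with 10.90, 9.36 and 9.17 in ES EB and 10.94, 10.72 and 11.99 in iPS EB. Of all 6 tested, ES EB had 1 above and 4 below fibroblasts, and iPS EB 2 above and 3 below. The call of Cdkn1b in iPS EB (0.55, adjusted p = 0.018) was lost without fibroblast array 3 (adjusted p = 0.091), with median scaling (0.052) and with only the groups compared (0.063).

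Imprinted genes, many of which control fetal growth, were mostly higher in EB. Of 11 tested, 7 were higher and 2 lower in each line. Peg3, a zinc finger gene expressed from the paternal copy, was higher by 5.21 and 6.43, Dlk1, a Notch family ligand of embryonic tissue, by 4.54 and 5.31, and Mest by 4.30 and 4.57. Grb10, an adaptor that restrains insulin and growth factor signalling, was lower (-3.40 and -2.38). Hox genes, which carry positional identity, were lower at 10 of 17 tested genes in each line. That list wrote out every number for each of the clusters a to d, giving 52 names that are not all genes. Of these names, 38 had a probe and 17 passed the filter on dim probes. Hoxb7 read 8.52, 8.35 and 8.15 in fibroblasts and differed by -2.66 and -3.85. Hoxa2, a gene of the hindbrain and pharyngeal arches, was the member higher in ES EB (at least 2.73-fold) and was not called in iPS EB (adjusted p = 0.12).

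At the gene level, 4-fold or more above fibroblasts were 5.55% of the 11501 genes in ES EB and 5.07% in iPS EB, and 4-fold or more below were 6.74% and 6.83%. The 411 genes at least 4-fold higher in EB of each line were followed through the other groups as a description, without a test. In ES cells 295 of them lay within 2-fold of the ES EB mean, and 268 in iPS cells within 2-fold of the iPS EB mean. In the selected CM, 314 were more than 2-fold below the EB mean of the ES line and 319 of the iPS line. The shares of all tested genes with these patterns were not computed, and the 411 were chosen for being high in EB. Dppa5a averaged 13.83 and 13.92 in undifferentiated ES and iPS cells and 5.70 and 5.34 in their CM. Igf2 did not follow that course, with means of 8.66 and 10.02 in undifferentiated cells and 13.07 and 13.20 in CM. Actc1 averaged 4.44 and 5.06 in undifferentiated cells and 13.82 and 13.91 in CM, with the EB between them. Of 655 genes that fibroblasts expressed at 4-fold or more above the EB of each line, 115 were detected on no EB array. In ES cells 527 of the 655 lay within 2-fold of the ES EB mean, and 529 in iPS cells within 2-fold of the iPS EB mean. The 655 were chosen for being low in EB, with median levels of 5.17 in ES EB and 4.95 in ES cells. Of them, 131 were detected on no ES EB array and 216 on no ES array. Close to background, lying within 2-fold is partly fixed by the floor, so these counts are no comparator for the 411. Whether nearness to undifferentiated cells is particular to the genes high in EB was not tested. Mmp3 and Lox were brighter in undifferentiated cultures than in EB: Mmp3 averaged 7.46 and 9.87 in ES and iPS cells, and Lox 7.06 and 7.74. Those cultures had been grown on embryonic fibroblast feeders, whose share of the RNA was not tested.

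**Figure D4:**
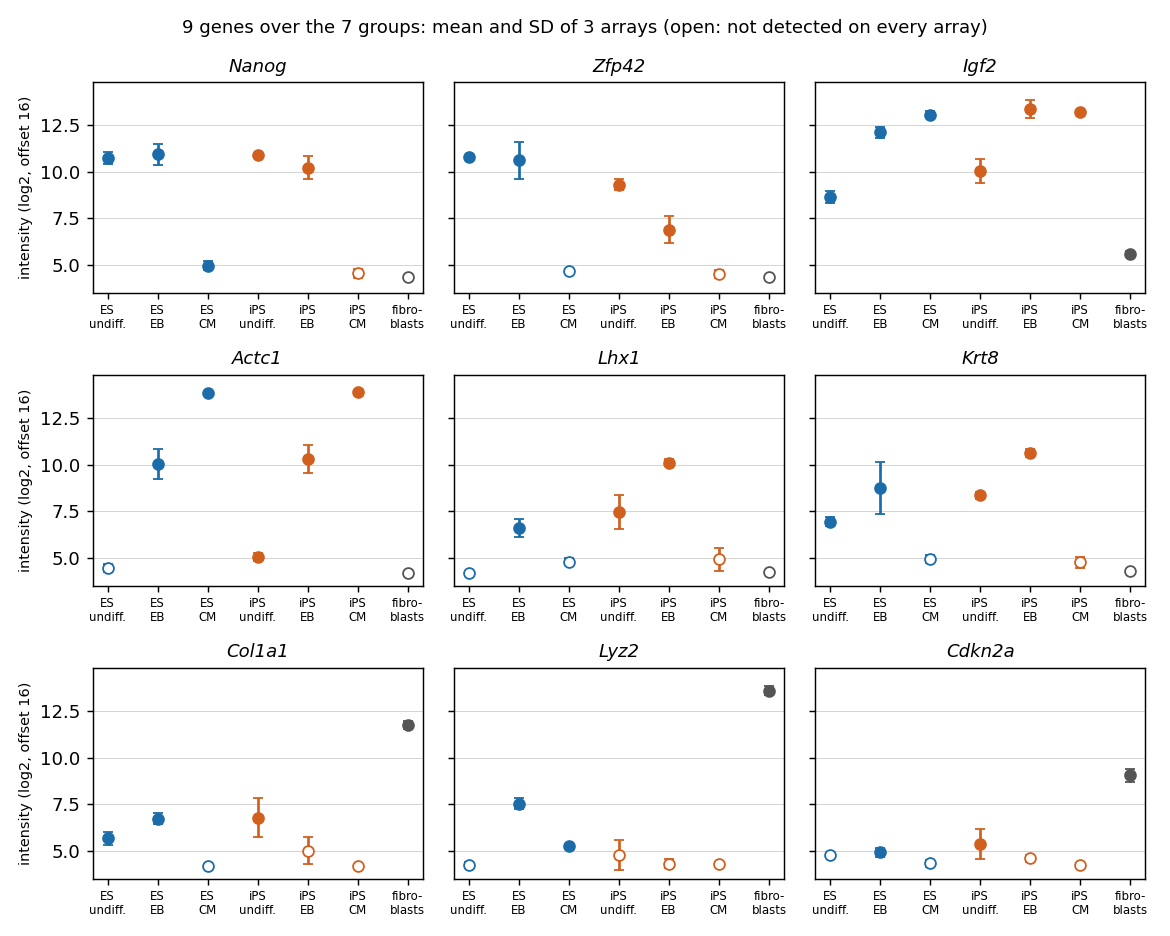
Mean log2 normalized intensity (y axis) with the SD of 3 arrays for 9 genes across the 7 groups (x axis), with open symbols where the probe was not detected on every array. Nanog and Zfp42 are lower in CM than in EB, Actc1 is higher, and Col1a1, Lyz2 and Cdkn2a are highest in fibroblasts.

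The test of the EB of both lines against each other, which uses no fibroblast array, is also the test of whether their distances from fibroblasts differ. It called 5401 of 21047 probes (25.7%), 2692 of them higher in iPS EB and 2709 higher in ES EB, but fewer of them were far apart: 586 were 2-fold or more above ES EB and 725 were 2-fold or more below. The split was 1369 higher and 793 lower with median scaling and 1621 and 2399 with the 75th percentile. Without ES EB replicate 2, the lowest of all counts with a sample left out, 3668 probes were called. Of the pluripotency list, 5 genes were higher and 10 lower in iPS EB. Zfp42 (-3.72) and Fbxo15, an F-box protein of undifferentiated cells (-3.24), were lower, whereas Lin28a, an RNA-binding protein, was higher by 2.11, Dnmt3b by 1.88 and L1td1 by 1.29. A further L1td1 probe of similar brightness differed by 0.45 and was not called (adjusted p = 0.19). With only these EB groups in the fit, 3 were called higher and 2 lower, so the balance of calls turned with the samples in the fit. The log2 differences do not change with that choice, and the list's median stayed at -0.85. Of the epithelial list, 9 of 15 genes were higher in iPS EB and none lower (5 without ES EB replicate 2 and 2 with only these groups in the fit). Cldn6 was higher by 2.61, Esrp1 by 2.19 (2.86 without ES EB replicate 1) and Krt8 by 1.88 (2.68 without it, and not called with only these groups in the fit, adjusted p = 0.084).

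Of the matrix list, 1 gene was higher and 10 lower in iPS EB, so the iPS EB lay farther from fibroblasts at Fbln2 (-1.93), Col1a1 (-1.71), Bgn (-1.68) and Dcn (-1.56), while Has2, a hyaluronan synthase, was higher by 1.62. Of the leukocyte list, Lyz2 (-3.22, SE 0.27, adjusted p = 2.6e-07), C1qb (-1.97) and Laptm5 (-1.32) were lower in iPS EB and the other 6 were not called. Of the endothelial list, Esam (-2.18), Pecam1 (-1.76), Cdh5 (-0.90), Emcn (-0.88) and Egfl7 (-0.55) were lower and Flt1 higher (2.87). The call of Egfl7 was lost under 7 alternatives, among them median scaling (-0.27, adjusted p = 0.60) and only these groups in the fit (0.16), and that of Emcn was lost with median scaling (0.057), as was that of Laptm5 (0.054). Foxa2, a transcription factor of definitive endoderm and notochord, was detected in all iPS EB samples (6.43, 6.24 and 6.34) and higher by 2.00 than in ES EB, Foxa1 by 1.73 and Sox17 by 1.46.

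The 8 probes with the highest differences in each direction, with no overlap, held several that were also apart in the undifferentiated cells. The Mcm6 probe ILMN_1217331 read 4.55, 4.33 and 4.45 in ES EB and 9.54, 9.50 and 9.36 in iPS EB (5.02, SE 0.17), but 3 other probes of this helicase gene differed by 0.10, -0.12 and 0.10 only. Likewise the Zfp330 probe ILMN_2825109 differed by 4.87 while a second probe of the gene differed by -0.89, and a Rpl29 probe by 4.20 while the second differed by 0.88. Cops8, a subunit of the COP9 signalosome, has a single probe, undetected in ES EB (at least 16.0-fold). In undifferentiated cells the means of these probes were 4.71 (Mcm6), 4.40 (Zfp330), 5.33 (Rpl29) and 4.32 (Cops8) for ES, beside 9.35, 9.04, 9.79 and 8.49 for iPS. Whether the probes tell the genes from related copies or from sequence differences between the lines was not tested. Olig1, a transcription factor of oligodendrocyte precursors, was higher by 4.60 and was not detected in fibroblasts. It was also apart before differentiation, with means of 4.74 in undifferentiated ES and 9.54 in undifferentiated iPS cells. Of the probes higher in ES EB, both probes of Cryba1, a lens crystallin also made elsewhere, differed, by -5.39 and -4.86. Ctsj, a placental cathepsin, differed by -5.19 and read 10.58, 8.96 and 9.02 in ES EB. Xlr4a, an X-linked gene, differed by -4.82, Aard by -4.32, and Lyz1 by -4.38 (-4.98 without iPS EB replicate 3). Other tested probes of Lyz1, near background in the EB of both lines, differed by -0.002 and 0.011 only. The probes ILMN_1242107 (5.01), ILMN_2539109 (5.00), ILMN_1224237 (at least 14.7-fold), ILMN_1256343 (-5.86) and ILMN_2906728 (-5.71) have no gene name here.

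**Figure D5:**
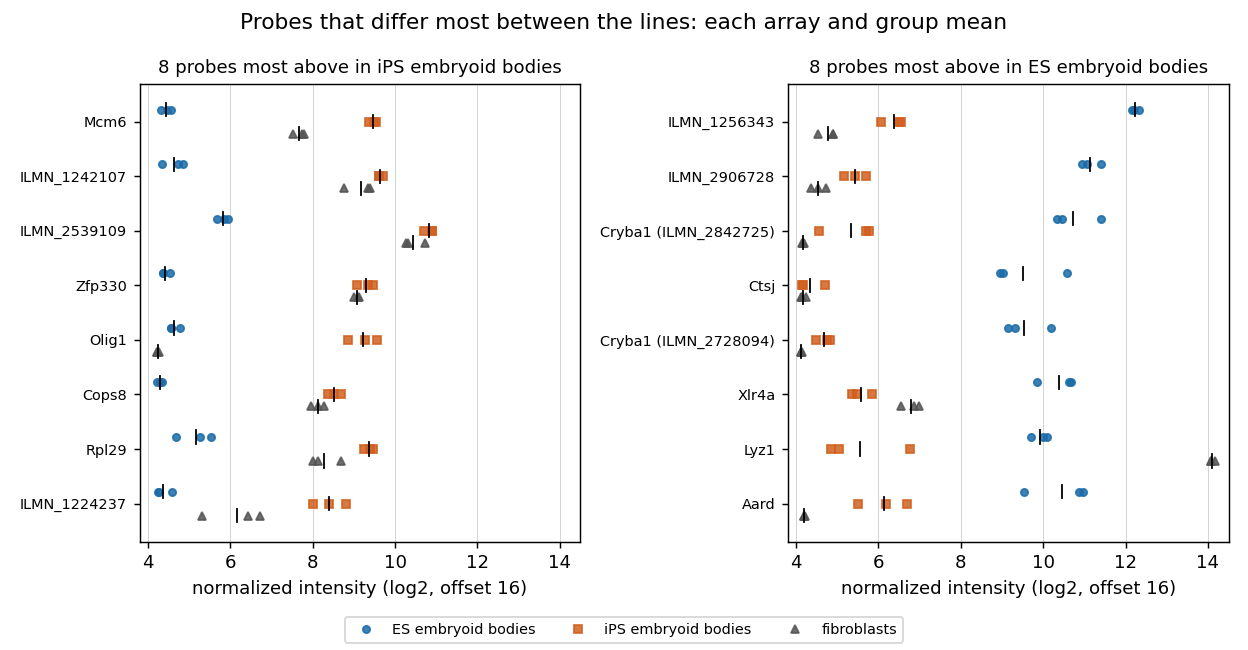
Log2 normalized intensity (x axis) of the 8 probes highest in iPS EB over ES EB and the 8 highest in ES EB over iPS EB, with a point for each array and a tick at each group mean. The probes high in iPS EB lie below 6 in ES EB, and all of them but Olig1 were detected on all 3 fibroblast arrays.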

How the data were processed

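Per the labels' protocols, TRIzol RNA was amplified as cRNA (Ambion MessageAmp). Per the file headers, the deposited non-normalized table gives each probe and array a linear signal intensity, with a detection p-value beside it. The authors' detection p-values take 936 steps, and the lowest intensity is 14.97. A second deposited table holds intensity normalized by the authors. Its rows matched those of the first by value (45281 of 45281, within 0.00125 on the log2 scale of the deposited values) but by identifier in only 3. Under the identifiers of the first table, 38 of 44 pluripotency probes lay at least 2-fold lower in CM than in undifferentiated cells (median log2 difference -3.58) and 39 of 58 cardiomyocyte probes at least 2-fold higher (2.36). Under those of the second table the medians were 0.04 and -0.01, so the first were used. The software that made the tables: not given in the sources used here. GEO's platform annotation names 1 gene for 34885 probes, several for 18 and none for 10378, and 34807 entrez identifiers matched RefSeq (GRCm38.p6), as did the promoter sequences' build.

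With limma 3.58.1 in R 4.3.3, neqc gave log2 values after normexp background correction, an offset of 16 and quantile normalization. Through the offset, changes of dim probes are understated. The test covered the 21047 probes with a detection p under 0.01 on 3 or more of the 21 arrays. A linear model with a mean per group was fitted with lmFit and eBayes on 19 samples (12 residual degrees of freedom) and adjusted by Benjamini-Hochberg over all tested probes. Where arrays number 3 a group, their number limits the precision. Named probes are the 12 highest and 12 lowest mean differences over both lines, called in both, without overlap with fibroblasts and with 1 probe per known gene (the brightest), and the 8 highest and lowest between the lines. List members are named by size of difference or place in the list. The series' design text calls the stem cell derived samples independent biological replicates. Culture numbers pair samples within a line, but EB and fibroblasts share only a number. Deviations of same-numbered samples correlated between -0.18 and 0.11 within lines. Alternatives covered background, scaling, the normalized table, filter, samples in the fit, variance prior, blocks and the omission of single samples. Simulated data with known changes served to check the code. The members and lists were chosen with earlier results of these data known.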

Additional observations from a re-analysis of the deposited data

Results flagged for a closer look

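The test of iPS EB against ES EB is the test of whether the distance from fibroblasts differs between the lines, and it called 2692 probes with a larger and 2709 with a smaller value in iPS EB. Among the genes named for their distance from fibroblasts, the iPS minus ES difference passed that test for Dppa5a (-0.92), Dppa4 (-1.17), Igf2 (1.26), Spink1 (1.80), Gldc (0.47), Dnmt3b (1.88), Lyz2 (-3.22), Ccl7 (-1.05) and Mfap5 (-0.71). Lyz2 was called lower than in fibroblasts in each line all the same. Ccl7 and Mfap5 were undetected in iPS EB, so these are fitted values against background, with bounds of at least 1.79-fold and 1.31-fold. The call was lost for Mfap5 without ES EB replicate 1 (adjusted p = 0.051), for Dppa4 with median scaling (0.10) and with only these groups in the fit (0.061), and for Dppa5a with only these groups (0.059).

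Among the probes named for the difference between the lines, those higher in iPS EB were Mcm6 (5.02), ILMN_1242107 (5.01), ILMN_2539109 (5.00), Zfp330 (4.87), Olig1 (4.60), Cops8 (4.24), Rpl29 (4.20) and ILMN_1224237 (4.03). Those higher in ES EB were ILMN_1256343 (-5.86), ILMN_2906728 (-5.71), both Cryba1 probes (-5.39 and -4.86), Ctsj (-5.19), Xlr4a (-4.82), Lyz1 (-4.38) and Aard (-4.32). Cops8 and ILMN_1224237 were undetected in ES EB, so their values are fitted against background. All 16 were named for that very difference, so the test adds no separate support. Other probes of Mcm6 (0.10, -0.12 and 0.10), Zfp330 (-0.89), Rpl29 (0.88) and Lyz1 (-0.002 and 0.011) did not show differences of that size. Those of Lyz1 were near background in the EB of both lines.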

How the results depend on the processing

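The numbers of called probes against fibroblasts stayed within 1.5 times under every alternative run. Leaving out each sample in turn gave 10065 to 11054 calls for ES EB against fibroblasts, 9728 to 10438 for iPS EB and 3668 to 5773 for the lines against each other, and 6334 to 6720, 5893 to 6237 and 1110 to 1721 probes at least 2-fold apart. Between the lines, 2162 probes were called with median scaling in place of 5401, and 667 were at least 2-fold apart without background correction and likewise in the authors' normalized values, in place of 1311. The cause was not tested. With 3 separate fibroblast samples, 13346 and 12845 probes were called against fibroblasts. Of the alternatives for single genes, 6481 kept the side of the threshold and, where called, the direction. A further 62 gained a call, 95 lost it and 1 changed sign with a call. Sign changes of differences called in neither fit are counted among the 6481. The reversed one was the difference of Hbb-bh1 between the lines, -0.29. It ranged from -1.21 to 1.42 with a sample left out, the latter (adjusted p = 0.025) without ES EB replicate 1, which read 9.49 beside 4.48 and 4.23. With the culture as a fixed replicate block, 10861, 10316 and 5377 probes were called (ES EB, iPS EB, lines), and as a random block 10860, 10247 and 5410, so pairing changed no count by over 1.5 times. With the shared number as the block over all groups and 3 fibroblast samples, the counts were 13340, 12838 and 5359. A chip block was not run, as no header names a chip. Signal over background limits the dim genes, whose differences are compressed or only bounds.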
